A study of Caenorhabditis elegans with 2 samples.

Results

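Peaks of NHR-86::GFP were described at the loci of 8 innate immune effector genes of C. elegans. The genes were irg-4 (F08G5.6), irg-5 (F35E12.5), F35E12.9, irg-6 (C32H11.1), drd-50 (F49F1.1), F49F1.5, mul-1 (F49F1.6) and F49F1.7. They were chosen by their presence among the 189 genes of the deposited gene table and by what earlier work on these data showed at their loci. Their being listed and their folds are thus a description and were not tested. At 4 loci, 8 of the 220 peaks of the deposited list were assigned to this group of genes. Only 3 of the genes (irg-5, irg-6 and F49F1.7) were tied to a peak by their own table value. Chromatin was immunoprecipitated with an anti-GFP antibody from whole animals of strain VL648, labelled as L4. VL648 carries the allele unc-119(ed3) and the transgene wwIs22, which joins Pnhr-86 to nhr-86ORF::GFP and brings unc-119(+) along. Animals were kept at 20 °C overnight with 70 µM R24, a xenobiotic compound that turns on immune effectors, or with the solvent alone (DMSO, 1%). Both groups shared this genotype, so the tagged receptor was driven by the promoter of nhr-86 in each, and per the study's methods the strain holds more nhr-86 transcript than wild-type animals. The treatment text of the labels speaks of wild-type animals and of a loss of nhr-86 function, while the strain field names VL648 for both libraries.

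Each group held 1 library, the R24 library with 879943 tags and the DMSO library with 2047658 tags, so the spread between replicates is unknown and no test was made. The DMSO library was the control of the peak caller. The peak call used no library of input DNA or of animals without the tag. Signal that did not come from the tagged receptor was thus not measured apart in these data. The study's quantitative PCR, given as percent of input, did include wild-type animals without the tag. For those animals it reports no enrichment at the promoter regions of mul-1, irg-4, drd-50 and irg-5, with R24 or with the solvent. Sequenced DNA fragments hold no transcript levels, and the labelled tissue could not be checked against marker genes.

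NHR-86 is a nuclear hormone receptor, one of a large worm family of DNA-binding proteins, many of which can respond to small lipophilic ligands. In the worm intestine, defence against ingested bacteria rests largely on secreted effectors whose basal transcription depends on the p38 kinase PMK-1. Infection response genes 4, 5 and 6 (irg) each encode a protein with a CUB-like domain, found among such effectors, and mul-1 encodes a mucin-like protein. The name drd-50 marks a gene turned down by dietary restriction. F49F1.5, F49F1.7 and F35E12.9 are known here by their cosmid names alone.

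The study designed 5 primer pairs for 4 of these genes to measure immunoprecipitated DNA by quantitative PCR. They are shown because they are the stretches of these loci that were measured a second way. They are written 5′ to 3′ in lower case, and 2 pairs belong to irg-5, one named for 1700 bp and one for 200 bp upstream of the gene. With that PCR the study reports significant enrichment at promoter regions of drd-50, mul-1, irg-4 and irg-5 under R24 and none under DMSO. The irg-5 region nearer to the gene served as a control, with no enrichment reported there under either treatment. The values of that PCR are not used here, and the primers were not placed on the peaks because no ce10 genome was at hand.
irg-4 forward (chromosome IV): tctacaaaaccacagcccacac
irg-4 reverse (chromosome IV): ggcacaaactgataagcatcca
irg-5, 1700 bp upstream, forward (chromosome V): aacaacttcccacgcatatgat
irg-5, 1700 bp upstream, reverse (chromosome V): tgacgcccactacaaactacaga
irg-5, 200 bp upstream, forward (chromosome V): cgtacatctgttatcgacctggatg
irg-5, 200 bp upstream, reverse (chromosome V): actgtgtccgtcgctccttt
drd-50 forward (chromosome IV): ccgcgccctctcatttt
drd-50 reverse (chromosome IV): agctgaaaagatcaatcacagcac
mul-1 forward (chromosome IV): aaaggtggacgaaagcaaaga
mul-1 reverse (chromosome IV): cgttcagcttagtaaagtagcgaca

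For each peak the pileup is the number of R24 tags, each extended to a fragment of 296 bp, that cover the summit, the peak's highest base. The background is the number of DMSO tags that would be found there at the depth of the R24 library, and the fold is pileup + 1 over background + 1. For all 220 peaks the background came out as a whole number of DMSO tags in a window of 296 bp, 1000 bp or 10 kb around the summit, with a tolerance of at most 0.00136 tags, and these were taken as the tags behind it. A whole number in 1000 bp is also one in 10 kb, with 10 times as many tags. The 90 backgrounds of that kind were read as 1000 bp, which gives the wider interval. From both tag numbers an exact 95% interval of the R24 to DMSO ratio was computed, without the added tag. These intervals cover counting error only, and they make no allowance for the summit being the highest point that the caller found in the R24 library. A locus is a group of peaks less than 10 kb apart, and all positions are in ce10.

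The irg-4 locus on chromosome IV held the longest peak of the whole list. That peak, IV:12435463-12437746, ran over 2284 bp, against a median length of 359 bp for all peaks. At its summit (12436061) it held 41 R24 tags (exact Poisson interval 29.4 to 55.6) over a background of 4.30, which was 10 DMSO tags within 296 bp. The fold was 7.93 (5.74 to 10.7 with the background held fixed), the 5th highest of the 220 peaks, and −log10 q was 21.8. R24 tags stood 9.54 times over DMSO tags at equal depth (4.70 to 21.4). The summit lay off centre, at base 599 from the left end, or 26.2% of the length.

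A second peak followed after a gap of 509 bp, at IV:12438256-12438722, with a length of 467 bp and its summit 2239 bp from the first (12438300). It was the peak of fewest tags among the 8, with 14 R24 tags (7.65 to 23.5) over a background of 2.76. This background came from 217 DMSO tags in 10 kb, so that no more than 6 DMSO tags lay within the 296 bp at the summit. Its fold was 3.99 (2.30 to 6.51), with a ratio of 5.07 (2.73 to 8.70) and a −log10 q of 3.36. The pileup intervals of the first and second irg-4 peak did not overlap, while the intervals of their R24 to DMSO ratios did. Both peaks together covered 84.4% of the 3260 bp from the first start to the last end, and the next peak on the chromosome was 87594 bp away.

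The assignment of these peaks to irg-4 rests on gene order and not on a value of irg-4 itself, which matched no peak. Between fat-6 and F53B2.8, the nearest listed genes on each side that could be tied to a peak by their table values, irg-4 was the only listed gene and these were the only 2 peaks. There were 140 protein-coding genes in that interval, so the order does not show that irg-4 is the gene nearest to them. Its direct neighbours clec-184 and clec-185, both named as C-type lectin genes, were not in the table.

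At the irg-5 locus on chromosome V, 3 peaks lay within 6033 bp, with folds that fell from the first to the third. The first peak, V:13737034-13738499, was 1466 bp long, the 6th longest of the list, with its summit at 13737753. It held 39 R24 tags (27.7 to 53.3) over a background of 4.71, from 37 DMSO tags in 1000 bp. Its fold was 7.01 (5.04 to 9.52), the 9th highest, with a ratio of 8.29 (5.15 to 13.4) and a −log10 q of 18.6. Of the 8 ratios this one had the highest lower bound. The first irg-4 peak had a higher ratio (9.54), but its interval, from only 10 DMSO tags in 296 bp, was wider.

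The second irg-5 peak, V:13739849-13740179, was the one to which the table value of irg-5 pointed, through its −log10 q of 7.88. It was 331 bp long with its summit at 13740024, 2271 bp from that of the first peak, and began 1349 bp after the first had ended. There were 26 R24 tags (16.98 to 38.1) over a background of 4.73, or 11 DMSO tags in 296 bp. The fold was 4.71 (3.14 to 6.83) and the ratio 5.50 (2.63 to 12.3). The peak tied to irg-5 by value was thus not the highest of its locus.

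The third irg-5 peak, V:13742747-13743066, lay 2567 bp further on, with its summit (13742860) 2836 bp from the second and 5107 bp from the first. It held 18 R24 tags (10.7 to 28.4) over a background of 4.83, from 38 DMSO tags in 1000 bp. Its fold of 3.26 (2.00 to 5.05) was below the median of all peaks, its ratio was 3.72 (2.00 to 6.69) and its −log10 q 2.91. The backgrounds of the 3 peaks differed little (4.71 to 4.83), and it was the R24 pileup that ranged from 39 to 18 tags. Only the second of these peaks was tied to irg-5 by value. The first and the third were counted to the locus by distance alone, and 638 protein-coding genes lie between T16G1.6 and C29F3.9, the nearest listed genes on either side of irg-5 that were tied to a peak. Ratio intervals overlapped in each pair of the 3 peaks. Together the peaks covered 35.1% of the locus, and no other peak lay within 456966 bp.

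F35E12.9, the gene next to irg-5, was listed in the table but matched no peak. It follows irg-5 in gene order, as the third peak follows the peak tied to irg-5, but no gene positions were used. Between irg-5 and C29F3.9, the next listed gene tied to a peak, there were 3 peaks for 5 listed genes, so none of these peaks could be given to F35E12.9 alone. F35E12.6 and F35E12.10, on the outer sides of the pair, were not listed.

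**Figure D1:**
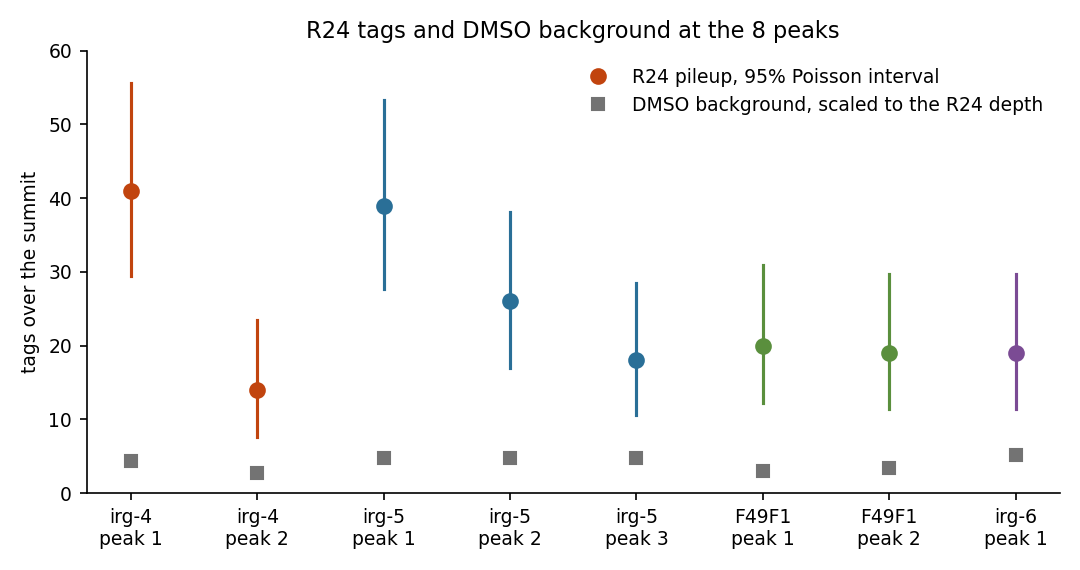
R24 tags over the summit (circles, vertical axis in tags, lines are exact 95% Poisson intervals) and the DMSO background scaled to the R24 depth (squares) at each of the 8 peaks, coloured by locus, 1 library per condition. Pileups ranged from 14 to 41 tags, with the first irg-4 and the first irg-5 peak highest, while backgrounds stayed between 2.76 and 5.16.

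The F49F1 locus on chromosome IV brought 4 members together with 2 peaks of like height. The first peak, IV:4123156-4123615, was 460 bp long and had its summit at 4123379. It held 20 R24 tags (12.2 to 30.9) over a background of 3.01, or 7 DMSO tags in 296 bp. The fold was 5.24 (3.30 to 7.96), with a ratio of 6.65 (2.70 to 18.6) and a −log10 q of 7.07.

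The second F49F1 peak, IV:4124258-4124673, was 416 bp long and followed after 642 bp. At its summit (4124507), 1128 bp from the first, it held 19 R24 tags (11.4 to 29.7) over a background of 3.44, or 8 DMSO tags in 296 bp. The fold was 4.51 (2.803 to 6.91), with a ratio of 5.53 (2.31 to 14.6) and a −log10 q of 5.43. The pair differed by 1 R24 tag and by 1 DMSO tag, far inside their counting intervals. Their summits were the closest of the 3 loci with several peaks, and both peaks covered 57.7% of 1518 bp, while the nearest other peak was 87897 bp away.

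By its table value F49F1.7 belonged to the second F49F1 peak, whose fold it matched. The values of drd-50, F49F1.5 and mul-1 matched no peak. In gene order they stand, in this sequence, between hlh-30, which encodes a transcription factor of autophagy and immune genes, and F49F1.7. Only 1 peak, the first F49F1 peak, lay between the peaks of those genes, for 3 listed genes and 23 protein-coding genes. Gene order therefore placed the first peak between the peaks of hlh-30 and F49F1.7 but tied it to none of mul-1, F49F1.5 and drd-50. No gene positions were used, so on which side of F49F1.7 the first peak lies is not known.

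The irg-6 locus, also on chromosome IV, had 1 peak, IV:12913563-12914130, to which irg-6 was tied through the fold. The peak was 568 bp long with its summit at 12913932. It held 19 R24 tags (11.4 to 29.7), as many as the second F49F1 peak, over a background of 5.16, or 12 DMSO tags in 296 bp. Its fold of 3.25 (2.02 to 4.98) was the lowest of the 8 peaks and the 180th of the list, its ratio was 3.68 (1.698 to 8.32) and its −log10 q was 3.05. The nearest other peak lay 43433 bp away. On both sides of irg-6 the next protein-coding genes, K08D8.5 and srz-15, were not listed.

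**Figure D2:**
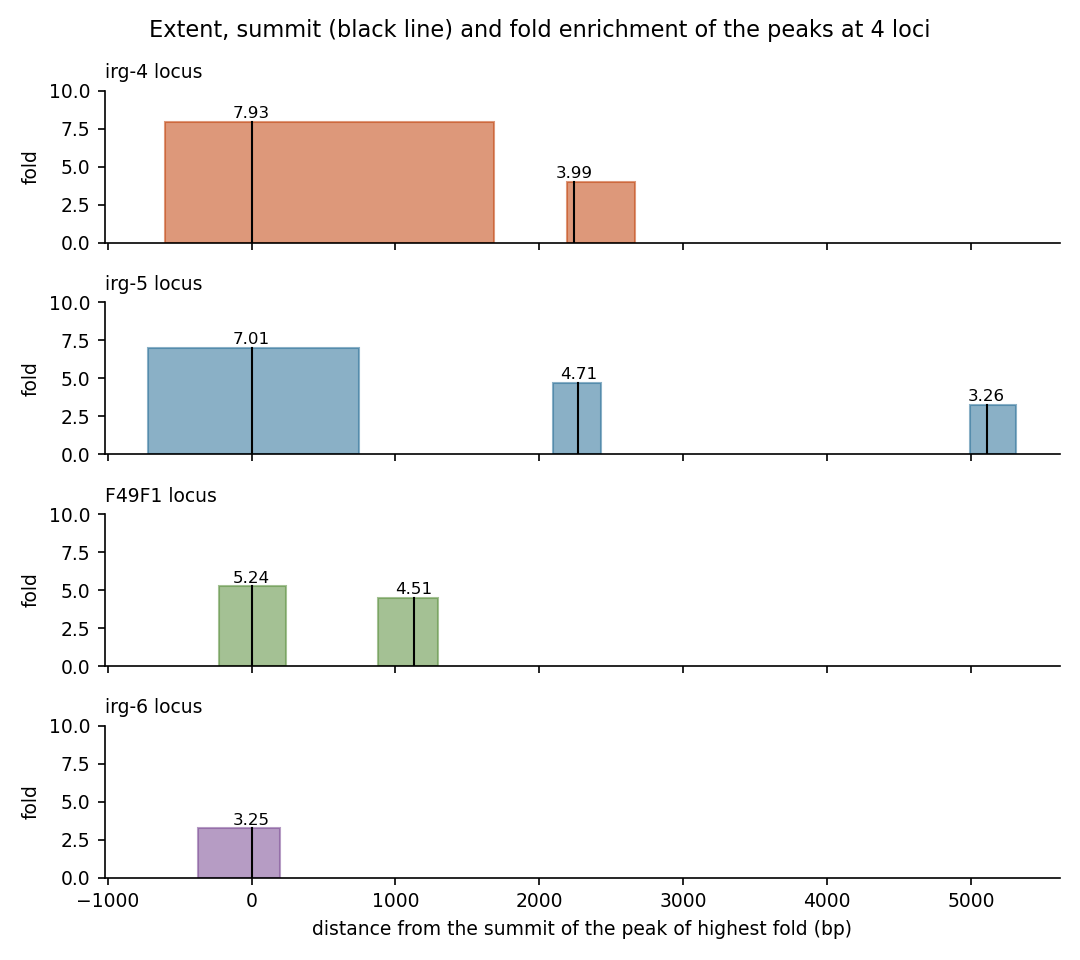
The peaks of each locus drawn to 1 scale, with distance in bp from the summit of the locus's highest peak on the horizontal axis and the authors' fold (R24 over DMSO) on the vertical axis. Bars span each peak from start to end and black lines mark summits. The highest peak came first in all 3 loci with several peaks, at folds of 7.93, 7.01 and 5.24, and irg-6 had a single peak at 3.25.

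The 3 loci with several peaks, as the caller split them, had a higher top fold than the locus with 1 peak. It was 7.93 at irg-4, 7.01 at irg-5 and 5.24 at F49F1 against 3.25 at irg-6. The peaks of irg-4 and of F49F1 lay less than 1 kb apart, and merging them would leave several peaks at irg-5 only. Their lowest peaks had folds of 3.99, 3.26 and 4.51, so that the weakest peak at irg-5 was at the level of irg-6. Within a locus, the highest fold was 1.99 times the lowest at irg-4, 2.15 times at irg-5 and 1.16 times at F49F1. The interval of the irg-6 ratio overlapped with that of every other peak, and no pair of ratios among the 28 pairs of peaks had separate intervals. Separate pileup intervals were found in 3 of the 28 pairs, and all 3 set the first irg-4 or the first irg-5 peak against the second irg-4 or the third irg-5 peak. A locus with several peaks offers more peaks from which the highest is taken, and 1 locus with a single peak gives no spread, so the contrast was given no test. Over the whole list, 23 loci with several peaks had a median top fold of 4.55 and 167 single peaks a median of 3.86.

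The background values also differed between the peaks, though they come from windows of 296 bp, 1000 bp or 10 kb and mostly from few DMSO tags. Per 1000 bp of the window used, the DMSO library held 23.6 and 27.0 tags at the F49F1 peaks, 33.8 and 21.7 at irg-4, 37 to 38 at irg-5 and 40.5 at irg-6. With equal pileups of 19 tags, the second F49F1 peak thus had a fold of 4.51 and irg-6 one of 3.25, from 8 and 12 DMSO tags. No interval was computed for the DMSO tags alone, so these values do not show that the loci differ in DMSO level. What set the DMSO level at these loci was not tested.

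Against the whole list, the 8 peaks were mixed. A fold of at least 5 was reached by 3 of the 8 peaks and by 17.3% of all peaks. The values nearest to that limit in the list were 5.00 above and 4.96 below, and the second irg-5 peak (4.71) and second F49F1 peak (4.51) stood under it. At least 1000 bp were covered by 2 of the 8 peaks, the first of irg-4 and of irg-5, against 3.64% of all peaks. Another peak lay less than 10 kb away for 7 of the 8 peaks, against 24.1% of all peaks, but nearness to other peaks was among the reasons for describing these loci. The median fold was 4.61 over the 8 peaks and 3.88 over the other 212, and 6 of the 8 stood above the median of all, which was 3.896. By pileup they did not stand higher, with a median of 19.5 tags against 23 tags, and 7 of the 8 had a background below the median of 5.16.

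**Figure D3:**
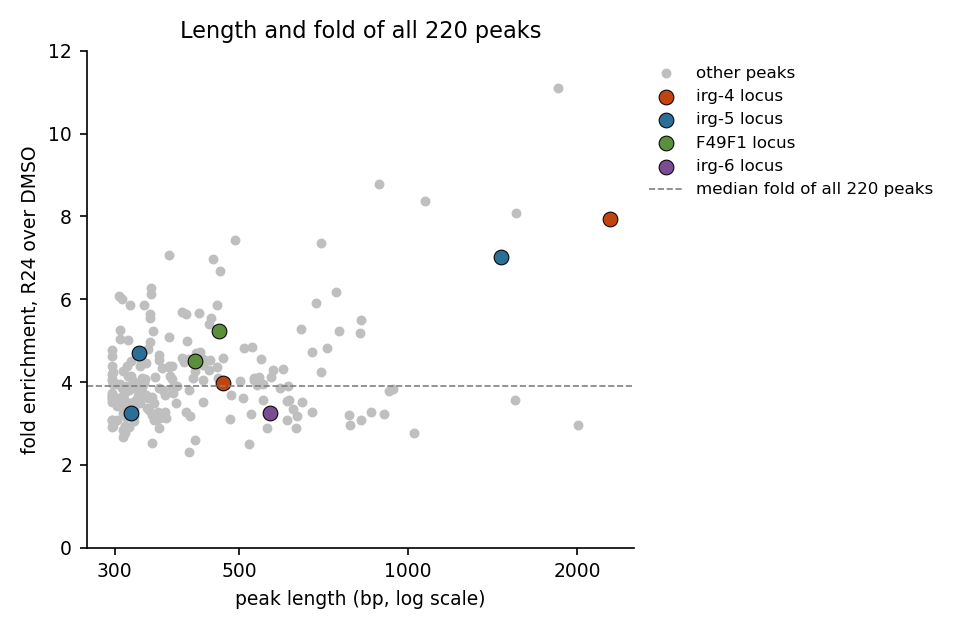
Length (horizontal axis, bp, log scale) and fold (vertical axis, R24 over DMSO) of all 220 peaks, with the 8 peaks in colour by locus and the median fold of all peaks as a dashed line. The first irg-4 peak (2284 bp, fold 7.93) and the first irg-5 peak (1466 bp, fold 7.01) lie at upper right, and the other 6 between 320 and 568 bp.

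The ratio of tags without the added tag was larger than the fold at each of the 8 peaks, since 1 tag weighs more on a background of 3 to 5 tags than on the pileup. It ran from 3.68 at irg-6 to 9.54 at the first irg-4 peak, with a median of 5.51 against 4.55 over all peaks. The interval lay above 1 at all 8 peaks, as it did for all 220 peaks of the list. The caller had chosen all of them by an excess of these same tags, so this was largely fixed beforehand. The lower bound was lowest at irg-6 (1.698) and next lowest at the third irg-5 peak (2.00).

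**Figure D4:**
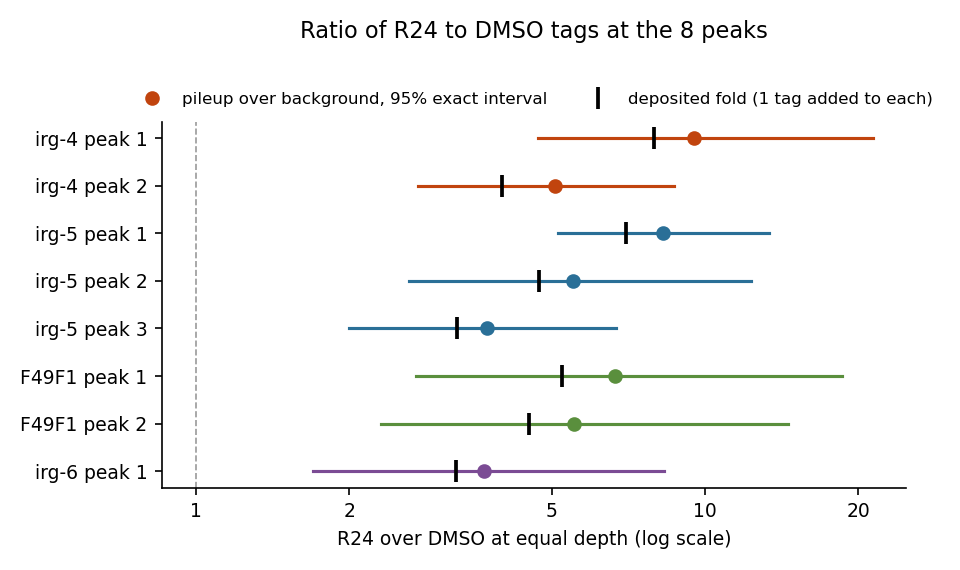
R24 over DMSO at equal depth (horizontal axis, log scale) for the 8 peaks, as the pileup over the background with its exact 95% interval (circles and lines, counting error only) and as the deposited fold with 1 tag added to each (black bars). Ratios lie between 3.68 and 9.54, all intervals lie above 1, as for every called peak of the list, and all of them overlap with one another.

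Among the genes of the table, these members stood close together. A direct protein-coding neighbour was also listed for 6 of the 8 members, against 15.7% of all listed protein-coding genes, though the members were chosen as loci. The sequence drd-50, F49F1.5, mul-1 and F49F1.7 was the single run of 4 consecutive listed genes, beside 10 runs of 2, one of them irg-5 with F35E12.9, and 129 genes with no listed neighbour. In the table as a whole 77.2% of genes were tied to a peak by their values, against 3 of the 8 members (irg-5, irg-6 and F49F1.7).

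The table lists 0.766% of all protein-coding genes. Of the infection response genes irg-1 to irg-8, the 3 members irg-4, irg-5 and irg-6 were listed and the other 5 were not. None of 7 genes of the p38 pathway (tir-1, nsy-1, sek-1, pmk-1, atf-7, vhp-1 and skn-1) was listed, and none of 12 further genes taken as CUB-like, among them dod-17, dod-22 and dod-24. At 0.766%, lists of this size would hold less than 1 gene on average, so a count of 0 says little. Of 6 regulators, hlh-30 was listed and tied through its full −log10 q to a peak at IV:4024145-4024496 (22 R24 tags, fold 3.09). Also listed was nhr-86, tied only through the decimals of a −log10 q, a looser match. Its peak was at V:2066652-2067434 (133 R24 tags over a background of 40.8, fold 3.20). The transgene carries nhr-86 as well, and its part in the high background there was not tested. On the members' own cosmids, 4 of 14 F49F1 genes, 2 of 8 F35E12 genes, 2 of 12 C32H11 genes and 1 of 7 F08G5 genes were listed, and the only one among them that is no member was C32H11.9 (cld-1), whose value matched no peak.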

How the data were processed

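Reads were aligned to ce10 by the authors with BWA MEM 0.7.15, per the labels and the paper's methods, which also state that they kept reads of mapping quality 10 or more (Picard, SAMtools) and called peaks with MACS2. The file header names version 2.1.1.20160309, a fragment of 296 bp, a q cutoff of 0.05 and a genome size of 2.7 Gb, the human setting. The methods instead name no model and a p threshold. The header numbers the libraries in a way that the labels do not. The deposited peak list holds the pileup (signal), the fold (a ratio, R24 over DMSO) and −log10 p and −log10 q for each peak. In the authors' gene table the column headed as fold holds a score of mixed origin. It was used only to tie genes to peaks, after division by 1.325, where it equalled a peak's −log10 q or fold, or the decimals of a −log10 q (tolerance 6e-06), on the gene's chromosome and in gene order. The table's p and q columns and its values as folds were not used.

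The background was recovered from pileup and fold. A Poisson tail at that background differed from the deposited −log10 p by at most 0.000322 over all peaks. It equalled DMSO tags × 0.430 × 296 over the window length for 220 of 220 peaks, within 0.000461 tags of a whole number and with the smallest of 3 windows that fitted taken for each, a step chosen after the data were seen. Intervals at 95% are exact Poisson for pileups and exact binomial for ratios (SciPy 1.17.1, Python 3.11.15). Some of these steps, among them the recovery of DMSO tags, were tested on simulated data, with no result given here. That test is not counted as a check of the intervals, of matches by fold or decimals, or of placement by gene order. Gene names and order came from a RefSeq list of WBcel235, none of whose coordinates were used, and the gene table's own rule for assigning peaks is not stated. Primer sequences came from the study's supplementary material. The members and the gene lists were chosen with earlier results of these data known. Named genes were the members, their nearest tied neighbours and the listed genes of those lists and cosmids. A search of promoters for motifs was planned and not run, since no sequence was at hand.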

Additional observations from a re-analysis of the deposited data

How the results depend on the processing

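Of 25 alternatives 23 moved a value by less than its counting interval or a count by no more than 2. Asking for a fold of at least 5 left 3 peaks at the loci in place of 8. Taking the median fold of each locus's peaks in place of the highest lowered the median over the 3 loci with several peaks from 7.01 to 4.87, and each of those loci (5.96 at irg-4, 4.71 at irg-5, 4.87 at F49F1) still stood above irg-6 (3.25). The worm genome size raised the lowest background from 0.0965 to 2.89 tags, which touched only the second irg-4 peak, whose fold became 3.85 in place of 3.99. Merging peaks less than 1 kb apart left 6 peaks, since the 2 at irg-4 and the 2 at F49F1 became 1 each. After that merging only irg-5 had several peaks, so which loci count as having several depends on where the caller split peaks. The contrast with irg-6 was not computed again in that setting. A distance of 5 kb or 20 kb in the definition of a locus, a q of 0.01 and matching in full only changed none of the counts. The planned motif alternative was not run.

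With 1 library in each group leaving out a library was not possible. No paired analysis was possible because the comparison holds 1 library on each side and comes from no test. The R24 library was 2.33 times shallower than the DMSO library. At 14 to 41 R24 tags a summit, the intervals of the ratios were wide and all overlapped with one another. Overlap of separate intervals does not show that 2 ratios are equal, and no pair of peaks was tested for a difference.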

Other observations

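Over the whole list, the DMSO window that set the background was read as 296 bp for 108 peaks, 1000 bp for 90 and 10 kb for 22, with median folds of 3.67, 4.07 and 4.40. At the 8 peaks described here the windows were read as 296 bp for 5, 1000 bp for 2 and 10 kb for 1. The caller takes the largest of the windowed backgrounds, so at the first irg-5 peak no more than 10, and at the third no more than 11, DMSO tags lay within 296 bp of sequence around the summit.

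The table value of one further listed gene, Y111B2A.9, equalled the −log10 q of the first F49F1 peak and also that of a peak on chromosome III. The gene list used here gave that gene no chromosome, and it was tied to neither peak.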
